A study of Mus musculus with 2 samples.

Results

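Genes for the enzymes that write and erase marks on histones and DNA were examined in tissue from below and above the dorsal aorta of the mouse embryo. Members were all genes of the array whose symbol belongs to the Hdac, Sirt, Kdm, Kmt, Setd, Ehmt, Suv39h, Ezh, Dnmt, Tet, Prmt or Kat series, with the Y-linked Kdm5d left out. This gave 82 of 24675 genes with a symbol. All but 1 code for proteins, the exception being Dnmt3aos, an antisense RNA of Dnmt3a. The rule used gene symbols and no measured value, but it was set with earlier results of these data known. The ventral tissue lay underneath the aorta, and the dorsal tissue between the roof of the aorta and the notochord. Both were cut by laser microdissection from the same C57Bl/6 embryos at embryonic day 10.5, and neither group carried a transgene, deletion or treatment according to the labels. The labels do not say how many embryos were combined. Each tissue is represented by 1 Affymetrix Mouse Gene 2.0 ST array, labelled biological replicate 4 in both cases, so every difference below is a single difference between 2 arrays, with no error and no test.

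Gene activity depends in part on chemical marks that enzymes add to or remove from chromatin. Histone acetyltransferases loosen chromatin and deacetylases reverse this, while lysine methyltransferases place marks that favour transcription, such as those on H3K4 and H3K36, or silence it, such as those on H3K9 and H3K27. DNA methyltransferases silence through cytosine methylation, and TET enzymes oxidise that mark. Several of these enzymes, among them Kmt2a, Ezh2, Dnmt3a and Tet2, are known for their roles in blood stem cells, and the region around the dorsal aorta at this stage is where the first such stem cells of the embryo appear.

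Expression is given as log2 values after RMA, a standard array normalization. As a mark of background, the 95th percentile of the levels, on both arrays, of 1360 genes for olfactory or vomeronasal receptors, which such tissue is not thought to use, was taken, 3.92 on the log2 scale. A gene was kept for counting if at least 1 array gave it the median level of all genes, 3.10, or more, which retained 13982 genes. A kept gene is called ventral-enriched where its measured ventral value was at least 2-fold above its dorsal value, and dorsal-enriched in the opposite case. Markers of the tissues on either side of the aorta were read first. Of 6 coelomic epithelium and visceral mesenchyme markers, 4 were ventral-enriched and none dorsal-enriched, whereas 3 of 6 sclerotome markers were dorsal-enriched and none ventral-enriched. Endothelial markers also differed, with 3 of 5 kept members ventral-enriched and a summed linear signal over all 6 markers of 211 in ventral against 75.6 in dorsal tissue. Of 4 smooth muscle markers, 2 were ventral-enriched, with a summed signal of 218 in ventral and 66.9 in dorsal tissue, and Cnn1 had a bound of 7.43-fold. Of 3 kept notochord markers 2 were dorsal-enriched, as was 1 of 3 for neural crest and glia, Fabp7, 3.86-fold lower in ventral tissue. Neuron markers were divided, with 1 of 3 enriched on either side and a summed signal of 341 in ventral and 124 in dorsal tissue. Most of that ventral signal was from Nefm, at 8.19 in ventral and 5.45 in dorsal tissue, while Tubb3 was 2.21-fold lower in ventral tissue. Of 5 kept embryonic erythroid markers 1 was dorsal-enriched, Klf1, 2.14-fold lower in ventral tissue, while Alas2 was at least 1.14-fold higher there. The summed signal of 6 erythroid markers, nearly all from the globins Hba-x, Hbb-bh1 and Hbb-y, was 10653 in ventral and 11428 in dorsal tissue. That of 5 proliferation markers was 3958 in ventral and 3964 in dorsal tissue. The endothelial markers Tek and Tie1 were under the background mark in both tissues. What these cell types contribute to the differences of the enzyme genes was not tested.

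The enzyme genes that were 2-fold apart on measured values all lay in 1 direction. Of the 82 members, 70 were kept, and 16 of these, or 22.9%, were ventral-enriched, against 9.44% of all kept genes. None of the 70 was dorsal-enriched, against 4.88% of all kept genes. The 16 genes were Hdac1, Setdb2, Kat6b, Kdm2a, Kat8, Setdb1, Tet1, Kdm5b, Kmt2a, Kmt2c, Kmt5b, Ezh2, Kdm6a, Setd3, Kdm4c and Hdac2, so they include writers and erasers of both activating and silencing marks. With every value under the background mark set to that mark, a reading added after the data were seen, 12 members stayed at least 2-fold higher in ventral tissue, or 17.1% against 7.17% of all kept genes, and none in dorsal tissue, against 3%. The 4 that dropped out were Kdm4c, Tet1, Kdm6a and Kmt5b, whose bounds were under 2-fold. The other 54 kept members were within 2-fold on measured values, and their median difference, ventral minus dorsal, was -0.07. The median over all kept members was 0.06, against -0.12 over all kept genes, and it depended on the filter: over the 50 members with at least 1 array above background it was 0.55, against 0.03 over all such genes. In dissected tissue, a lower share of cells expressing a gene and less of its RNA per cell cannot be told apart.

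**Figure D1:**
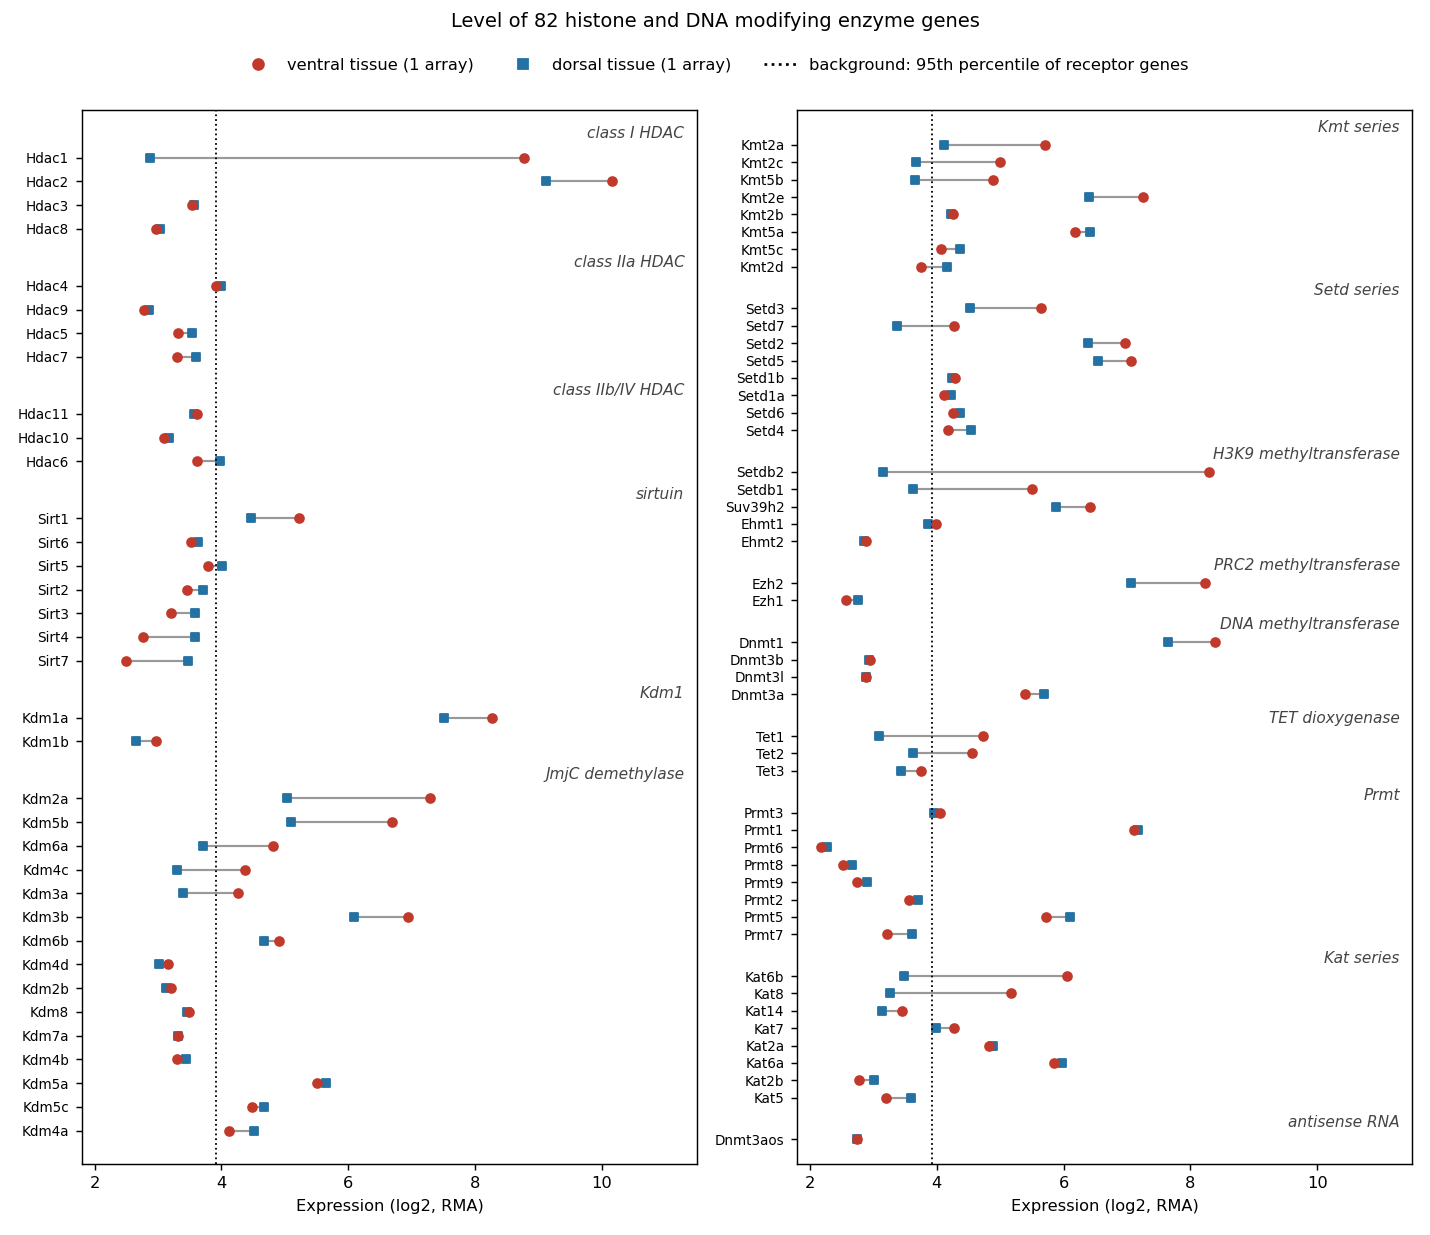
Level of each of the 82 members on the log2 scale (x axis) by class of enzyme, with ventral tissue as red circles and dorsal tissue as blue squares, 1 array each, and background (3.92) as a dotted line. Hdac1 and Setdb2 have the widest gaps, with a dorsal square left of the dotted line, and most sirtuins and Prmt genes lie near or left of it on both arrays.

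Part of that count depends on how genes enter it. A gene kept only through its ventral value had to be lower in dorsal tissue, though not always by 2-fold. Among the 50 members above background on at least 1 array, the same 16 were ventral-enriched, a share of 32.0% against 17.7% of all genes chosen in that way. None of the 50 was dorsal-enriched, against 8.46% of such genes. Among the 32 members above background on both arrays, a choice that favours neither tissue, 6 were ventral-enriched. That share of 18.8% lay closer to the 13.8% of all such genes, and the other 10 of the 16 were at background in dorsal tissue. Under the same choice no member was dorsal-enriched, against 6.65% of all such genes. Of the 82 members, 14 were above background on the ventral array alone, 4 on the dorsal array alone and 32 on neither. Of all 24675 genes, 1127 were above it on the ventral array alone, 1213 on the dorsal array alone and 17583 on neither. Counted over all 82 members and all 24675 genes, the dorsal-only share of the members was thus close to that of all genes. The ventral-only share was higher, but far more of all genes were on neither array. Among the 50 members above background on at least 1 array, 14 were ventral-only and 4 dorsal-only. Of 7092 such genes, 1127 were ventral-only and 1213 dorsal-only. On that base the dorsal-only share of the members was lower than that of all genes, and the ventral-only share higher. The 4 dorsal-only members were Hdac4, Hdac6, Kmt2d and Sirt5, with dorsal values from 3.98 to 4.17 that barely passed the mark. Some ventral-only members were also close to it, such as Ehmt1 at 3.99, Kdm3a at 4.26 and Setd7 at 4.28. Others, such as Hdac1 at 8.78 and Setdb2 at 8.30, were far above it. The 99th percentile of the receptor genes, a stricter mark, was 5.48. Of the 16 ventral-enriched members, 10 reached it in ventral tissue, while Kat8, Kmt2c, Kmt5b, Kdm6a, Tet1 and Kdm4c did not.

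**Figure D2:**
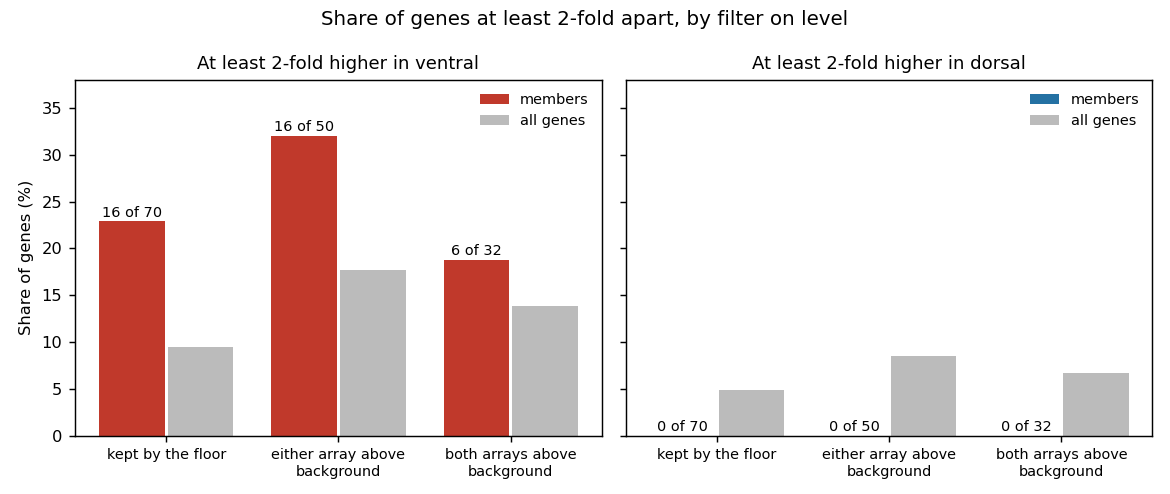
Share of genes ventral-enriched (left panel) and dorsal-enriched (right panel), in percent, for members in colour and all genes in grey, under 3 filters on level. Members exceed all genes in the left panel under each filter, by the least where both arrays had to be above background (6 of 32 members), and have no gene in the right panel.

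**Figure D3:**
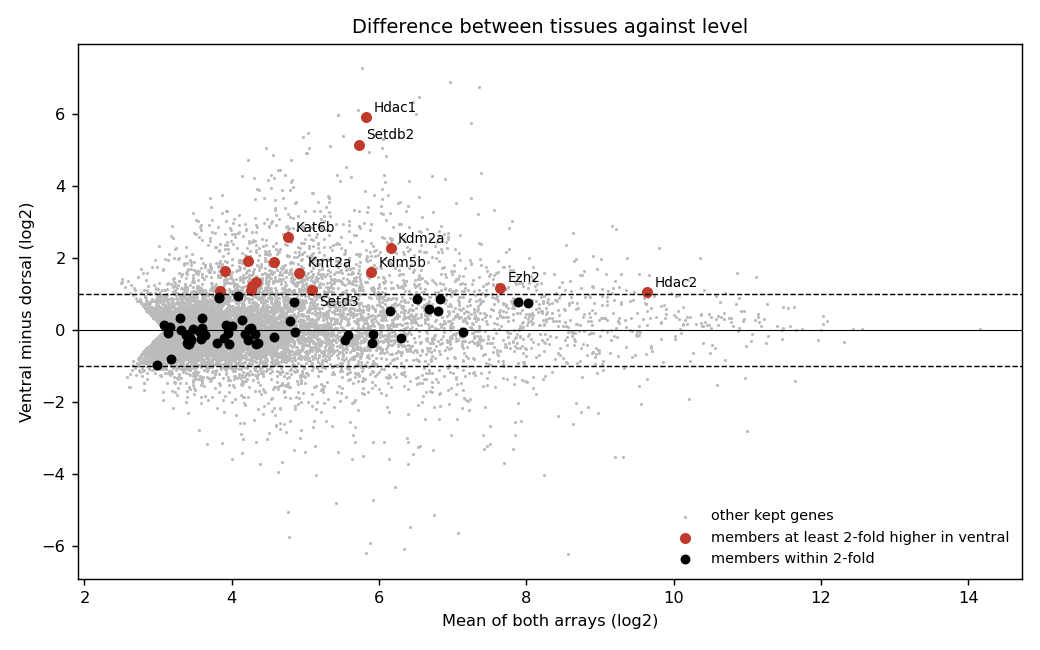
Ventral minus dorsal difference (y axis, log2) against the mean of both arrays (x axis, log2) for all 13982 kept genes in grey, the 16 members ventral-enriched in red and the other 54 kept members in black. Dashed lines mark 2-fold, and no member lies below the lower line.

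Promoter sequences are shown for 4 of the 16 genes: the paralogs Setdb2 and Setdb1, both of which were at background in dorsal tissue, and Hdac2 and Ezh2, which were above it on both arrays. Each is the stretch of 250 bases just before the transcription start in RefSeq, build GRCm38.p6, 5′ to 3′ on the strand of the gene. Setdb2 is read from chr14:59440881-59441130 on the minus strand, Setdb1 from chr3:95357203-95357452 on the minus strand, Hdac2 from chr10:36974294-36974543 on the plus strand and Ezh2 from chr6:47595031-47595280 on the minus strand. Capitals mark matches, on either strand, to the cores CCAAT (bound by NF-Y), CCGGAAG (ETS factors) and GGGCGG (SP factors), which do not overlap each other in these sequences.
Setdb2: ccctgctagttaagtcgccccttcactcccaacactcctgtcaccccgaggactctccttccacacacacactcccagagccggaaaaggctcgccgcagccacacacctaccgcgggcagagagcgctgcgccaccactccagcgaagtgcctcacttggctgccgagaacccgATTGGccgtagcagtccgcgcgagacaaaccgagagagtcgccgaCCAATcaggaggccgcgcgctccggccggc
Setdb1: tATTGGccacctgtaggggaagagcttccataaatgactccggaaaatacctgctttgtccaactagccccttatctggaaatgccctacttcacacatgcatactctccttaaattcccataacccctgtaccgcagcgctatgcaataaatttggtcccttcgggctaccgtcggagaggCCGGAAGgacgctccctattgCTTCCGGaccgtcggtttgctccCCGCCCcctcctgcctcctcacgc
Hdac2: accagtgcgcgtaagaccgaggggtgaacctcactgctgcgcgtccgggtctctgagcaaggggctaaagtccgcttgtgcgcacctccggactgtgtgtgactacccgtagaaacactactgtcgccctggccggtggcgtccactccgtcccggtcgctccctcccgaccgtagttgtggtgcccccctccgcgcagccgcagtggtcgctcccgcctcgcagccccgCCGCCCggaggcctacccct
Ezh2: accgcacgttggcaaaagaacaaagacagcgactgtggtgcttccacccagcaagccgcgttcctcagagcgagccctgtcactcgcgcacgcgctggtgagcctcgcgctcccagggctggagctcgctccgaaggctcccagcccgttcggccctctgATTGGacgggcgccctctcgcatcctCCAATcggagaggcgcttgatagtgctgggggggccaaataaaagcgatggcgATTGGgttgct

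The Setdb2 window held 2 CCAAT cores and the Ezh2 window 3, whereas the Setdb1 window held 1 CCAAT core, 2 ETS cores and 1 SP core, and the Hdac2 window 1 SP core. TATAAA, the TATA box core, was also searched on both strands and occurred in none of these 4 windows. These matches are letters in a window and do not show that a factor binds there.

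Class I histone deacetylases, of which Hdac1 and Hdac2 are the catalytic subunits of the NuRD, Sin3 and CoREST corepressor complexes, were split. Hdac1 was at 8.78 in ventral and 2.87 in dorsal tissue. With a dorsal level under the background mark, only a bound can be given, at least 29.0-fold higher in ventral tissue, which sets the ventral level against that mark. Like every gene here, Hdac1 was read through 1 feature per array. Hdac2, the close paralog that shares most of its functions, was at 10.16 in ventral and 9.11 in dorsal tissue, 2.07-fold higher in ventral tissue. Both paralogs were thus higher in ventral tissue, and the bound for Hdac1 exceeded the fold of Hdac2. The Hdac2 difference of 1.05 on the log2 scale fell short of 2-fold after quantile normalization of the columns (0.84) and after removal of the trend with level (0.77). Hdac3, the catalytic subunit of the NCoR complex, and the X-linked Hdac8 lay under the mark in both tissues. Hdac3 was at 3.54 in ventral and 3.57 in dorsal tissue, and Hdac8 at 2.97 in ventral and 3.03 in dorsal tissue.

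The class II and class IV deacetylases gave little signal. Hdac4, a class IIa enzyme regulated by export from the nucleus, was at 3.91 in ventral and 4.00 in dorsal tissue, on either side of the background mark. Hdac6, a mainly cytoplasmic tubulin deacetylase, was at 3.61 in ventral and 3.98 in dorsal tissue. Hdac5, Hdac7, Hdac9, Hdac10 and Hdac11 lay under the mark in both tissues, so that no difference could be detected at this signal.

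Sirtuins, the NAD-dependent deacetylases, contained 1 gene above background on both arrays. Sirt1, the nuclear enzyme that deacetylates histones and transcription factors, was at 5.22 in ventral and 4.46 in dorsal tissue, 1.69-fold higher in ventral tissue. Sirt5, a mitochondrial desuccinylase, was at 3.78 in ventral and 4.01 in dorsal tissue, and the remaining 5 were at background on both arrays. Among these was Sirt7, a nucleolar sirtuin, at 2.49 in ventral and 3.47 in dorsal tissue, which gives no measured difference.

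Among the lysine acetyltransferases that share the MYST domain, Kat6b and Kat8 were higher in ventral tissue. Kat6b, which acetylates H3 and is mutated in a human craniofacial and skeletal syndrome, was at 6.05 in ventral and 3.49 in dorsal tissue, at least 4.38-fold higher in ventral tissue. Its paralog Kat6a, required in mice for the emergence and upkeep of blood stem cells, was at 5.86 in ventral and 5.98 in dorsal tissue, so the paralogs did not move together. Kat8, which acetylates H4K16 within the MSL and NSL complexes, was at 5.17 in ventral and 3.26 in dorsal tissue, at least 2.38-fold higher in ventral tissue. Kat7, the catalytic subunit of the HBO1 complex, was at 4.27 in ventral and 3.99 in dorsal tissue. Kat2a, the acetyltransferase of the SAGA complex, was at 4.83 in ventral and 4.89 in dorsal tissue. Kat5 (Tip60), Kat2b and Kat14 were at background on both arrays.

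Both sides of H3K4 methylation held genes that were higher in ventral tissue. Kmt2a (MLL1), the H3K4 methyltransferase that maintains Hox expression, was at 5.70 in ventral and 4.12 in dorsal tissue, 2.99-fold higher in ventral tissue. Kmt2c (MLL3), which places monomethyl marks at enhancers, was at 4.996 in ventral and 3.67 in dorsal tissue, at least 2.11-fold higher in ventral tissue. Kmt2d, its paralog in the same kind of complex, ran the other way within 2-fold, at 3.76 in ventral and 4.17 in dorsal tissue. Kmt2b was at 4.25 in ventral and 4.22 in dorsal tissue. Kmt2e, an MLL-family protein with little catalytic activity, was at 7.26 in ventral and 6.41 in dorsal tissue, 1.81-fold higher in ventral tissue. Setd1a and Setd1b, the catalytic subunits of the SET1 complexes, differed by -0.11 and 0.05 on the log2 scale.

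Of the H3K4 demethylases, Kdm5b, a JmjC enzyme that removes trimethyl marks, was at 6.69 in ventral and 5.10 in dorsal tissue, 3.02-fold higher in ventral tissue. Its paralogs Kdm5a, at 5.50 in ventral and 5.66 in dorsal tissue, and Kdm5c, at 4.48 in ventral and 4.68 in dorsal tissue, were slightly lower in ventral tissue. Kdm1a (LSD1), the amine oxidase of the CoREST complex that is required in the mouse for blood cells to arise from endothelium, was at 8.27 in ventral and 7.51 in dorsal tissue, 1.69-fold higher in ventral tissue. Kdm1b was at background on both arrays.

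Methyltransferases of H3K9, the mark of heterochromatin, numbered 5, of which 4 were kept and 2 ventral-enriched, beside the 9.44% of all kept genes. Setdb2, a relative of Setdb1 with a split SET domain, was at 8.30 in ventral and 3.16 in dorsal tissue, at least 20.8-fold higher in ventral tissue. Setdb1, the enzyme that silences retroelements together with Trim28, was at 5.51 in ventral and 3.63 in dorsal tissue, at least 3.002-fold higher in ventral tissue. Suv39h2, which trimethylates H3K9 at pericentromeric repeats, was at 6.41 in ventral and 5.88 in dorsal tissue. Ehmt1 was at 3.99 in ventral and 3.86 in dorsal tissue, and Ehmt2, its partner in the G9a-GLP dimer, was at background on both arrays.

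The demethylases of H3K9 were less uniform. Kdm4c, which removes trimethyl marks, was at 4.37 in ventral and 3.31 in dorsal tissue, at least 1.37-fold higher in ventral tissue. Kdm4a, its paralog, ran the other way within 2-fold, at 4.13 in ventral and 4.52 in dorsal tissue. Kdm3a and Kdm3b, which remove mono- and dimethyl marks, were within 2-fold on measured values and higher in ventral tissue, Kdm3a at 4.26 in ventral and 3.39 in dorsal tissue and Kdm3b at 6.95 in ventral and 6.09 in dorsal tissue. Kdm4b and Kdm4d were at background on both arrays.

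For H3K27, the mark of Polycomb silencing, the writer and 1 eraser were both higher in ventral tissue. Ezh2, the catalytic subunit of Polycomb repressive complex PRC2 in dividing cells, was at 8.22 in ventral and 7.06 in dorsal tissue, 2.24-fold higher in ventral tissue. Its difference of 1.16 on the log2 scale fell short of 2-fold after quantile normalization (0.89) and after removal of the trend with level (0.92). Ezh1, its counterpart in resting cells, was at background on both arrays. Kdm6a (UTX), the X-linked H3K27 demethylase, was at 4.82 in ventral and 3.71 in dorsal tissue, at least 1.86-fold higher in ventral tissue. Kdm6b (JMJD3) was at 4.91 in ventral and 4.68 in dorsal tissue. Ezh2 is often read as a gene of dividing cells, and the 5 proliferation markers were mixed, with none 2-fold apart. Cdk1 was at 8.36 in ventral and 7.47 in dorsal tissue, 1.85-fold higher in ventral tissue. Mki67 was at 8.07 in ventral and 8.43 in dorsal tissue. Whether cell division has a part in the Ezh2 difference was not tested.

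Enzymes of H3K36 and H4K20 methylation followed. Kdm2a, a CpG-binding demethylase of H3K36, was at 7.29 in ventral and 5.03 in dorsal tissue, 4.78-fold higher in ventral tissue. Its paralog Kdm2b, which recruits a PRC1 complex to CpG islands, was at background on both arrays. Setd2, which trimethylates H3K36, was at 6.97 in ventral and 6.39 in dorsal tissue. Kmt5b, which di- and trimethylates H4K20, was at 4.89 in ventral and 3.66 in dorsal tissue, at least 1.95-fold higher in ventral tissue. Kmt5a, which monomethylates it, was at 6.19 in ventral and 6.41 in dorsal tissue, and Kmt5c, the paralog of Kmt5b, at 4.07 in ventral and 4.36 in dorsal tissue. Setd3, an actin histidine methyltransferase despite its name, was at 5.64 in ventral and 4.53 in dorsal tissue, 2.16-fold higher in ventral tissue, and short of 2-fold after quantile normalization (0.90 on the log2 scale). The other members of the Setd series were within 2-fold on measured values, with Setd5 at 7.06 in ventral and 6.54 in dorsal tissue, Setd7 at 4.28 in ventral and 3.37 in dorsal tissue, and Setd4 and Setd6 slightly lower in ventral tissue, with differences of -0.37 and -0.12.

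In DNA methylation Tet1 and Tet2 were higher in ventral tissue, while the DNA methyltransferases were mixed. Tet1, which oxidises 5-methylcytosine, was at 4.73 in ventral and 3.10 in dorsal tissue, at least 1.75-fold higher in ventral tissue. Tet2, a frequent target of mutation in clonal blood disorders, was at 4.56 in ventral and 3.63 in dorsal tissue, at least 1.55-fold higher in ventral tissue. Tet3 was at background on both arrays, at 3.75 in ventral and 3.44 in dorsal tissue. Dnmt1, the maintenance methyltransferase, was at 8.39 in ventral and 7.65 in dorsal tissue, 1.66-fold higher in ventral tissue. Dnmt3a, a de novo methyltransferase, was at 5.39 in ventral and 5.69 in dorsal tissue. Dnmt3b, Dnmt3l and the antisense RNA Dnmt3aos were at background on both arrays.

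The protein arginine methyltransferases differed little, with none of 8 enriched in either tissue. Prmt1, which makes most of the asymmetric dimethylarginine of the cell, was at 7.10 in ventral and 7.17 in dorsal tissue. Prmt5, the main enzyme of symmetric dimethylarginine, was at 5.72 in ventral and 6.09 in dorsal tissue. Prmt3, which methylates a ribosomal protein, was at 4.05 in ventral and 3.95 in dorsal tissue, and the other 5 were at background on both arrays. The median measured difference over all 8, those at background included, was -0.15, beside -0.11 over all genes without the floor.

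The 2-fold line fell among members with similar measured differences. Just inside it were Hdac2 and Setd3, above background on both arrays, with differences of 1.05 and 1.11, and Kdm4c, whose dorsal value was under the mark, with 1.07. Just outside were Tet2 and Setd7, with 0.93 and 0.91. Their dorsal values were also under the mark, so their folds are bounds, at least 1.55 and at least 1.28, and their side of the line is not settled. Members at background on both arrays numbered 32, and no difference is read from them.

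Partner genes that form complexes with these enzymes, or share their activities without matching the naming rule, were read from 10 lists. Of 136 such genes kept, 25 were ventral-enriched, or 18.4% against the 9.44% of all kept genes, and 11 were dorsal-enriched, or 8.09% against 4.88%. The excess was smaller among the 105 partners above background on at least 1 array. Of these, 23.8% were ventral-enriched, against 17.7% of all such genes, and 10.5% dorsal-enriched, against 8.46%. Under both filters the partners fell on both sides, in contrast to the counts of 16 and 0 for the enzymes.

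The subunits of PRC2 that were 2-fold apart were higher in ventral tissue. Suz12, a core subunit without which the complex is unstable, was at 6.32 in ventral and 2.43 in dorsal tissue, at least 5.27-fold higher in ventral tissue. Mtf2, which brings PRC2 to CpG islands, was at 6.97 in ventral and 4.92 in dorsal tissue, 4.14-fold higher in ventral tissue. Jarid2, a cofactor, was at 5.03 in ventral and 3.71 in dorsal tissue, at least 2.16-fold higher in ventral tissue. Eed, another core subunit, which reads the mark, ran the other way within 2-fold, at 5.73 in ventral and 6.35 in dorsal tissue. The median difference over 7 kept PRC2 subunits was 0.55. Over 15 kept subunits of PRC1, the other Polycomb complex, it was -0.12. None of these 15 was 2-fold apart, beside 9.44% of all kept genes ventral-enriched and 4.88% dorsal-enriched.

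COMPASS subunits, which activate the Kmt2 and Setd1 enzymes, had 4 of 12 kept members ventral-enriched and 1 dorsal-enriched, with a median of 0.87. These shares were 33.3% and 8.33%. All 12 were above background on at least 1 array, and of all such genes 17.7% and 8.46% were so called. Ash2l, a core subunit, was at 6.27 in ventral and 4.31 in dorsal tissue, 3.89-fold higher in ventral tissue. Hcfc1, a cofactor shared with other complexes, was at 7.04 in ventral and 5.69 in dorsal tissue, 2.54-fold higher in ventral tissue. Wdr5, the scaffold of the core, was at 4.31 in ventral and 3.28 in dorsal tissue, at least 1.31-fold higher in ventral tissue. Cxxc1, the CpG-binding subunit of the SET1 complexes, was at 3.58 in ventral and 4.81 in dorsal tissue, at least 1.85-fold lower in ventral tissue.

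Among 27 kept subunits of the deacetylase complexes, 7 were ventral-enriched and 3 dorsal-enriched, or 25.9% and 11.1%. Of all kept genes these shares were 9.44% and 4.88%, and of genes above background on at least 1 array 17.7% and 8.46%. Sap30, a Sin3 subunit, was at 8.28 in ventral and 6.74 in dorsal tissue, 2.90-fold higher in ventral tissue. Rbbp7, a histone-binding subunit of several complexes, was at 8.79 in ventral and 7.39 in dorsal tissue, 2.63-fold higher in ventral tissue. Chd4, the remodelling ATPase of NuRD, was 2.33-fold, Rcor1, the scaffold of CoREST, 2.41-fold and Sin3a 2.12-fold higher in ventral tissue. Mbd3, which defines a form of NuRD, ran the other way, at 4.99 in ventral and 6.71 in dorsal tissue, 3.30-fold lower in ventral tissue. Hmg20b, a CoREST subunit, was at 4.91 in ventral and 6.07 in dorsal tissue, and so subunits of the same complexes were found on both sides.

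Subunits of acetyltransferase complexes were also divided, with 7 of 29 kept genes ventral-enriched and 3 dorsal-enriched. These shares were 24.1% and 10.3%, beside 9.44% and 4.88% of all kept genes. Supt20, a structural subunit of SAGA, was at 8.19 in ventral and 5.67 in dorsal tissue, 5.70-fold higher in ventral tissue. Tada2a, an adaptor of the Kat2 enzymes, was at 5.23 in ventral and 3.14 in dorsal tissue, at least 2.48-fold higher in ventral tissue. Msl2, a subunit of the MSL complex of Kat8, was at 5.38 in ventral and 4.06 in dorsal tissue, 2.51-fold higher in ventral tissue. Kansl3 and Kansl2, subunits of the NSL complex of Kat8, lay on the other side, Kansl3 at 4.23 in ventral and 5.35 in dorsal tissue and Kansl2 at 3.78 in ventral and 4.81 in dorsal tissue. Meaf6, shared by the MYST complexes, was at 5.04 in ventral and 7.18 in dorsal tissue, 4.43-fold lower in ventral tissue.

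Of 30 kept related enzymes outside the naming rule, 3 were ventral-enriched, or 10%, and 2 dorsal-enriched, or 6.67%, beside 9.44% and 4.88% of all kept genes. Nsd2, an H3K36 dimethyltransferase, was at 7.07 in ventral and 5.19 in dorsal tissue, 3.67-fold higher in ventral tissue, while Nsd1 was at 6.07 in ventral and 6.20 in dorsal tissue. Jmjd1c, a relative of the Kdm3 enzymes, was at 6.39 in ventral and 4.85 in dorsal tissue, 2.91-fold higher in ventral tissue. Riox2, a hydroxylase of a ribosomal protein, was at 3.96 in ventral and 2.82 in dorsal tissue, which bounds its fold only at 1.03. Carm1, an arginine methyltransferase of transcriptional coactivators, was at 5.26 in ventral and 6.32 in dorsal tissue, 2.08-fold lower in ventral tissue. Naa40, which acetylates the N-terminus of histones H2A and H4, was at 3.81 in ventral and 4.94 in dorsal tissue, at least 2.03-fold lower in ventral tissue. The general coactivators Ep300, at 5.21 in ventral and 5.25 in dorsal tissue, and Crebbp, at 8.45 in ventral and 7.97 in dorsal tissue, were within 2-fold, as was Hat1, at 6.57 in ventral and 6.29 in dorsal tissue. Dot1l, the H3K79 methyltransferase, was at background on both arrays. Among 8 kept readers and cofactors of heterochromatin, 1 was ventral-enriched and 1 dorsal-enriched, with a median difference of 0.47. Each was a share of 12.5%, beside 9.44% and 4.88% of all kept genes. Cbx3, a heterochromatin protein that binds methylated H3K9, was at 9.25 in ventral and 11.17 in dorsal tissue, 3.79-fold lower in ventral tissue. Its paralogs lay on the other side within 2-fold, Cbx5 at 8.73 in ventral and 7.87 in dorsal tissue and Cbx1 at 6.57 in ventral and 6.11 in dorsal tissue. Morc2a, an ATPase of the HUSH silencing pathway, was at 5.86 in ventral and 4.85 in dorsal tissue, right at the 2-fold line. Uhrf1, which guides Dnmt1 to newly copied DNA, was at 6.46 in ventral and 6.07 in dorsal tissue. Gadd45a, a stress gene with a proposed part in demethylation, was at 4.99 in ventral and 6.18 in dorsal tissue, 2.29-fold lower in ventral tissue.

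**Figure D4:**
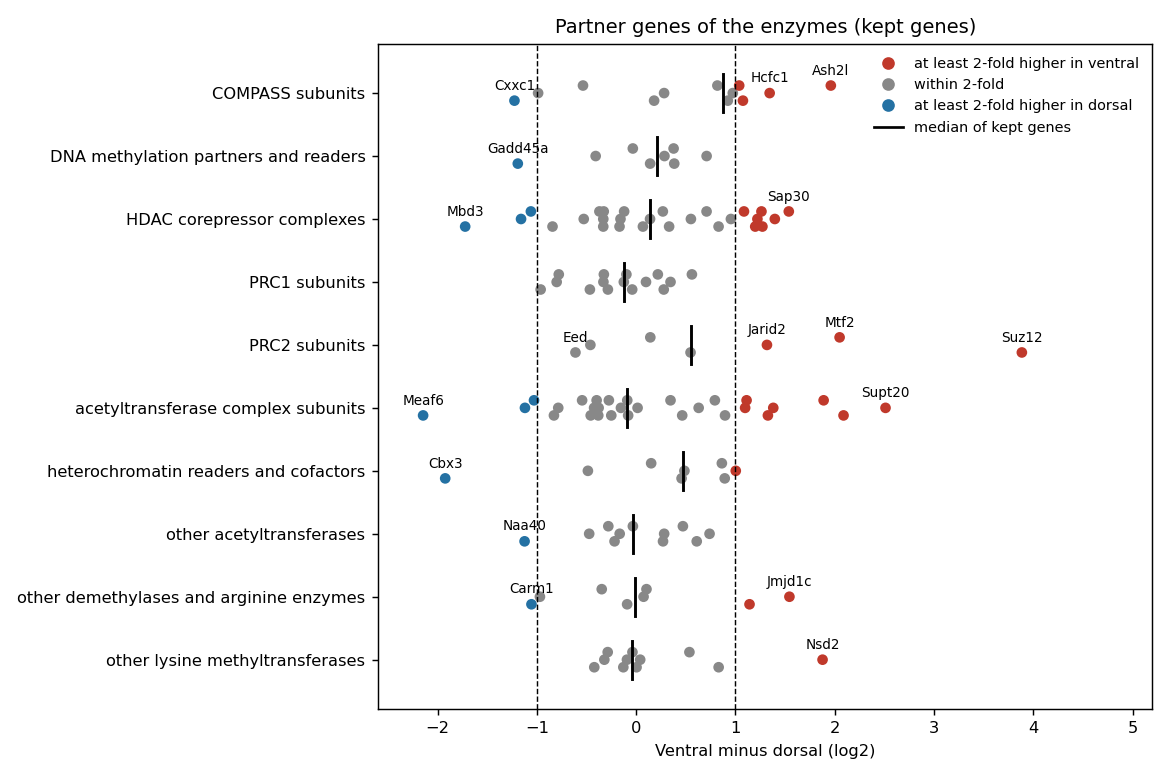
Ventral minus dorsal difference (x axis, log2) of each kept partner gene by list, red where ventral-enriched, blue where dorsal-enriched and grey within 2-fold, with a black bar at the median of each list. Suz12 lies farthest right and Meaf6 farthest left, PRC1 subunits are all grey and 5 lists hold both red and blue points.

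Genes of the enzyme set were long, and the difference between tissues went with length. The median genomic span of the 16 members ventral-enriched was 72808 bases, against 36200 bases for the other 54 kept members. Across the 70 kept members, which are not independent replicates and share both arrays, the Spearman correlation of span with difference was 0.43, and across 11925 kept protein-coding genes it was 0.18. These 70 include members at background on both arrays. Over the 50 members above background on at least 1 array it was 0.34, against 0.22 over 6164 such protein-coding genes. The Pearson correlation with the log of span was 0.19 for these 50 and 0.18 for these genes. Of 35 kept members with a span of at least 40 kb, 11 were ventral-enriched, or 31.4%, against 12.9% of 3539 kept protein-coding genes of such span. Of 35 shorter members 5 were, or 14.3%, against 8.31% of 8386 shorter genes. Among genes above background on at least 1 array, the share was 37.9% of the longer members against 23.6% of the longer genes. For shorter ones it was 23.8% against 15.5%. The line at 40 kb was placed near the median of the kept members after their spans were seen. The part of gene span in the count was not tested beyond removing the trend over all genes, which left the same 16 genes ventral-enriched and none dorsal-enriched.

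**Figure D5:**
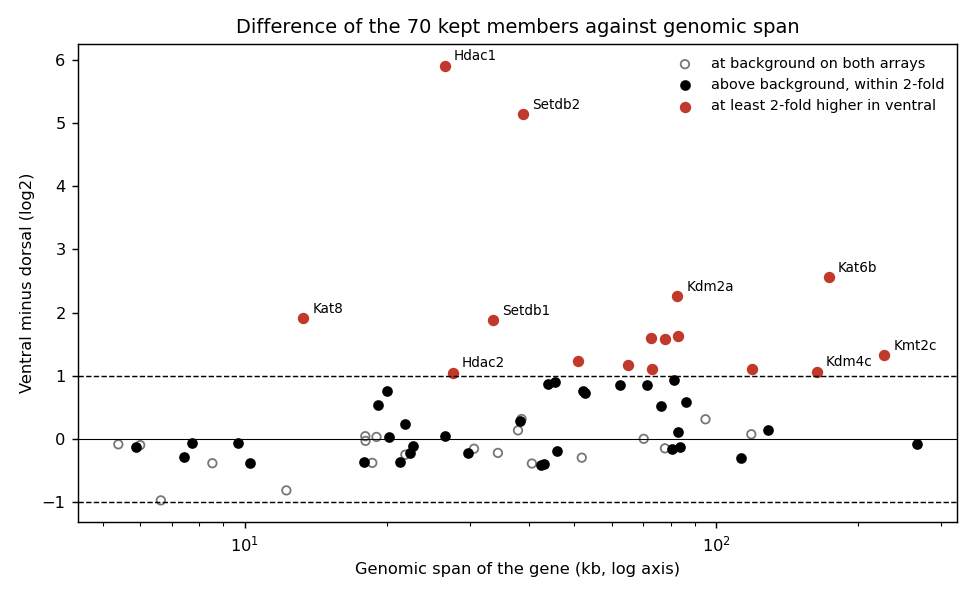
Ventral minus dorsal difference (y axis, log2) against genomic span (x axis, kb, log scale) of the 70 kept members, red where ventral-enriched, black where within 2-fold and open where at background on both arrays. Most red points lie at spans above 40 kb, while Hdac1, Setdb2, Setdb1, Hdac2 and Kat8 lie below it.

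Genes that overlap or adjoin the 16 members were looked up in RefSeq. Of the genes that overlap 1 of the 16, 4 were measured, among them Cers2 beside Setdb1, at 5.44 in ventral and 5.50 in dorsal tissue, and Ccnk beside Setd3, at 5.43 in ventral and 5.67 in dorsal tissue. None of the 4 was 2-fold apart, and their differences ran from -0.49 to 0.09. Of 26 measured protein-coding genes that lie next to the 16, 2 were ventral-enriched and 1 dorsal-enriched, with a median difference of -0.13. Of all genes, without the floor, 5.36% and 2.79% were at least 2-fold apart in these directions. Most of the 26, such as Hs3st5 beside Hdac2 and Dusp21 beside Kdm6a, were at background on both arrays, so no difference is read from them. Whether the differences are confined to the members was not tested.

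Promoter windows of the same 250 bases were found for 70 of the 82 members. An SP core occurred in 11 of 14 windows of members ventral-enriched, or 78.6%, in 59.1% of windows of kept members within 2-fold, in 52.8% of those of all kept genes and in 32.9% of 27025 windows of all genes. A CCAAT core occurred in 35.7% of the first group, in 52.3% of the second, in 36.3% of all kept genes and in 34.5% of all genes. The median GC content was 63.2% in the first group, 60.4% in the second and 58.4% over all kept genes. The SP core is itself made of G and C.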

How the data were processed

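The deposited table holds log2 expression per gene feature from 1 ventral and 1 dorsal array. Affymetrix Expression Console and RMA are named in the submitters' processing notes; their versions, the probe annotation and which arrays were normalized jointly are not stated in the material used here. Per the labels' protocols, cryosections of 20 µm were dissected and between 200 and 1000 pg of RNA was amplified by the SPIA method. The platform annotation gave 24675 of 25429 features exactly 1 symbol, and the 754 others were left out. Every symbol was current in RefSeq for GRCm38.p6.

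Differences are ventral minus dorsal, with no test at 1 array per tissue; precision is limited by that number. Genes were kept if the higher value reached 3.10, and counted as enriched at a difference of at least 1. A fold with 1 value under 3.92 is a bound that sets the other value against 3.92, and with both under it none is given. Members, lists and alternatives were chosen with earlier results of these data known. The rule for named genes took enriched members, those nearest to 2-fold, their paralogs and class members above background, up to 4 partners per list with the greatest differences, and 15 partners whatever their values. The readings by span, promoter and neighbour were added after values were seen. Of the listed genes, 13 were not used here. The script was checked on made-up shifts. Alternatives covered normalization, centring, level trend, floors, thresholds and span. Calculations ran in Python 3.11.15 with pandas 2.3.3, numpy 2.4.6, statsmodels 0.14.6, scipy 1.17.1 and matplotlib 3.10.9.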

Additional observations from a re-analysis of the deposited data

How the results depend on the processing

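Dorsal enrichment of a member was not seen under any alternative on normalization, centring, level or span trend, or floor. Of all genes counted under these alternatives, from 2.79% to 8.46% were dorsal-enriched. At a threshold of 1.5-fold there were 2, Sirt7 and Sirt4, both at background, beside 24 in ventral tissue, and at 3-fold 8 members remained in ventral tissue and 0 in dorsal tissue. The 16 members counted in ventral tissue became 13 after quantile normalization of the columns, without Ezh2 (0.89), Hdac2 (0.84) and Setd3 (0.90). That was 18.6% of kept members, against 8.39% of all kept genes. The 16 became 18 after centring on the median of all kept genes, with Setd7 and Tet2 added, or 25.7% against 10.9%. After a loess on level the count stayed 16, or 22.9% against 9.92%. There Setd7 and Tet2 stood in place of Ezh2 (0.92) and Hdac2 (0.77). With the mean of both arrays required above background, an alternative added after seeing the data, 14 of 44 members were counted, without Kdm4c and Tet1. That was 31.8%, against 17.8% of all such genes. With values under background set to it, also added after seeing the data, 12 were counted, or 17.1% against 7.17% of all kept genes, and the median was 0. The median difference of the kept members, 0.06, depended on which genes were kept. It was 0.55 with the higher array above background, 0.52 with the mean above it, 0.19 after the loess on level and 0.49 as a mean, so its size is not firm; the cause was not tested, beyond the change in genes counted. Centring shifted all differences by 0.12 and turned the sign of 7 kept members within 2-fold. No paired analysis was possible because each tissue has 1 array, and both carry the same replicate number. Near background, differences between the tissues were not detectable at this signal.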
